A study of Mus musculus with 7 samples.

Results

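The expression of 38 imprinted genes was examined in primary mouse embryonic fibroblasts (MEFs) that differ by an engineered deletion of the 4E2 region of chromosome 4. Imprinted genes are transcribed from the allele of a single parent, because methylation laid down in the egg or the sperm is kept on that allele after fertilisation, and many of them lie in clusters under a shared control region. Several act on foetal growth, with paternally expressed genes such as Igf2 promoting it and maternally expressed genes such as Cdkn1c and Igf2r restraining it. The genes are a list of well-known imprinted genes, which was chosen with earlier results of these data known. Of them, 23 are as a rule paternally expressed and 15 maternally expressed. Whether each is imprinted in these fibroblasts was not examined. An Ensembl identifier was found for 37 of the 38, and 31 of them are among the 15531 genes that the authors tested. None of the 38 lies on chromosome 4, so the deletion itself removes no copy of them.

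The 4 Df/+Bl6 lines carried the deletion chromosome (Df) from 129S5/SvEvBrd and an intact homologue from C57BL/6J. The 3 control lines, +129/+Bl6, had intact chromosomes of both strains. All 7 lines came from embryos at day 13.5 and were harvested at confluence at passage 4, and polyA+ RNA was sequenced. The Df chromosome came from chimeras of an engineered ES cell line mated with C57BL/6J females, so that in Df/+Bl6 embryos the 129S5 allele was the paternal and the C57BL/6J allele the maternal copy. The labels give the same cross of chimeric males for all embryos, while the methods write the control cross as C57BL/6J x 129S5/SvEvBrd without naming the sexes. The methods call the lines independent, and litter and batch are not given in the sources used here. As a check of the genotype columns, 24 of 74 tested genes past 150 Mb on chromosome 4, a stretch chosen after the values were seen, were listed. The stretch runs to the end of the chromosome and is not limited to the deletion. All 24 were lower in Df/+Bl6, with a median log2 ratio of -0.99. Over all tested genes, 8.67% were listed and 3.54% were listed as lower.

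The data for these genes are genotype means of normalized counts, in 3 deposited tables that hold the genes past the authors' FDR of 0.05. The first table adds the counts of both alleles (the combined comparison), and the others are of reads assigned to the 129S5 or to the C57BL/6J allele, and "listed" means present in such a table. Values of single MEF lines were not used, because the 9 value columns of the remaining deposited file carry no sample names, so no SD, standard error or test between lines is given. Depth per line is unknown. The methods state that genes with under 10 reads on each allele across genotypes were left out, which can remove weakly expressed genes before testing. Ratios are Df/+Bl6 over +129/+Bl6 on the log2 scale, computed from the deposited means without a pseudocount.

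Of the 31 tested imprinted genes, 2 were listed in the combined comparison (6.45%), against 8.67% of all tested genes. Both were lower in Df/+Bl6, where 3.54% of all tested genes were listed as lower and 5.13% as higher. They were Slc22a18, a maternally expressed transporter gene, and Igf2, the paternally expressed insulin-like growth factor 2. For the 129S5 allele 1 gene was listed, Zdbf2, a paternally expressed zinc finger gene that was higher in Df/+Bl6. None of the 38 was listed for the C57BL/6J allele. These tables list 1.65% and 2.09% of the genes tested in the combined comparison, and the number of genes tested for each allele is not given in the sources used here.

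The promoter windows of the 3 listed genes are shown because DNA methylation, the mark of imprinting, sits on CpG sites, and because the genes differ in how many they have. RefSeq windows on GRCm38.p6 run from 250 bases before to 50 bases after an annotated start, and CpG dinucleotides are in capitals. Slc22a18 has a single start, at chr7:143473539-143473838 on the plus strand. Igf2 has 4, of which the most upstream (chr7:142666767-142667066) and the most downstream (chr7:142657447-142657746) are printed, both on the minus strand. Zdbf2 has 2, at chr1:63200108-63200407 and chr1:63273019-63273318 on the plus strand.
Slc22a18: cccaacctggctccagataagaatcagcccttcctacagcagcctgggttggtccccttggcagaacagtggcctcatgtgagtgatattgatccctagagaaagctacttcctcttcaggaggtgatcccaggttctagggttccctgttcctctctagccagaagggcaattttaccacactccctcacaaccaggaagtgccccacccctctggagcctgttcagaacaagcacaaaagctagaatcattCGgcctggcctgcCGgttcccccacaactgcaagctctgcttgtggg
Igf2 upstream start: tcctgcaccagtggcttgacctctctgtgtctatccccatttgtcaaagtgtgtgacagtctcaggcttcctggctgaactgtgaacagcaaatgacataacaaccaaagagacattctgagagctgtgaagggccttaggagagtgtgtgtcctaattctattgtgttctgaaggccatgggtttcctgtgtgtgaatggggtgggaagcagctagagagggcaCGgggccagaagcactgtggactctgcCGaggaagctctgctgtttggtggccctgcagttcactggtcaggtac
Igf2 downstream start: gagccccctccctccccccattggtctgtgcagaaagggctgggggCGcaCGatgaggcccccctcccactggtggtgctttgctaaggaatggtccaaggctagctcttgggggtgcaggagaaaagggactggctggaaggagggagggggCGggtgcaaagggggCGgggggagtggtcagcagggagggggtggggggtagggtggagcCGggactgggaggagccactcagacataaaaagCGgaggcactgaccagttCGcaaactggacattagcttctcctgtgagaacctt
Zdbf2 upstream start: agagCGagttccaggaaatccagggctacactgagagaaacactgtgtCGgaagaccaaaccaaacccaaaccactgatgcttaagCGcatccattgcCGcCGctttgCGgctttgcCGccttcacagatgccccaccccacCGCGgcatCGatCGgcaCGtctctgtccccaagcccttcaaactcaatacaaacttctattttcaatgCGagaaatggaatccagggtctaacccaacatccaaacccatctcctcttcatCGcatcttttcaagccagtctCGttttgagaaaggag
Zdbf2 downstream start: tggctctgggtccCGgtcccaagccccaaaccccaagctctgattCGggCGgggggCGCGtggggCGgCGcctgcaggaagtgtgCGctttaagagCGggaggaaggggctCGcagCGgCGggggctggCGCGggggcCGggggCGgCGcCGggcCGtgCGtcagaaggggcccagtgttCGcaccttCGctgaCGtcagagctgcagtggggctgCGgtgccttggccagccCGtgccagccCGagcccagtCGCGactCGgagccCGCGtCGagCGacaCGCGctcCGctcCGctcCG

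The window of Slc22a18 holds 2 CpG sites, and 14.1% of the 32851 promoter windows in the RefSeq set hold fewer. Those of Igf2 hold 2 at the most upstream start, 7 at the most downstream start, and 14 and 24 at the starts between them. Zdbf2 holds 15 at its upstream and 38 at its downstream start, the latter above 95.0% of all windows. Windows were found for 32 of the 38 genes, 49 in all, with a median of 14 CpG sites against 7 over all windows. The letters TGCCGC, which the imprint-protecting protein ZFP57 recognises when methylated, were searched on both strands. They occur 3 times at the upstream start of Zdbf2 and not at its downstream start or in the window of Slc22a18. Of the 4 Igf2 windows, that with 14 CpG sites holds them 1 time and the other 3 do not. Over all promoters 11.6% hold TGCCGC at least once, and 13 of the 49 windows of the imprinted genes do (26.5%). The letters TATAAA, which cannot overlap TGCCGC, are in 13.6% of all windows and in 10 of the 49 of the imprinted genes (20.4%). Both counts are of windows and not of genes. Some windows of a gene overlap, as at Mest for TGCCGC and at Gnas for TATAAA, so a site can be counted more than once. The windows are therefore not independent, and the difference from the share over all windows was not tested. No window of Slc22a18, Igf2 or Zdbf2 holds TATAAA. Methylation was not measured, and the expression values do not show which start was used.

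Slc22a18 (ENSMUSG00000000154) lies in the Kcnq1ot1 cluster of distal chromosome 7, at chr7:143473726-143499334 of GRCm38. It encodes a membrane protein of the organic cation transporter family and is known for maternal expression in placenta and embryo. The control mean over both alleles was 255 normalized counts and the Df/+Bl6 mean 14.0, an 18.2-fold lower level (log2 ratio -4.19). Among the 550 genes listed as lower, 1 had a larger fall. Its level was low for a listed gene, and 1.63% of the 1346 listed genes had a lower mean over both genotypes. Neither allelic table holds it, so the allele that was lower is not known here.

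Igf2 (ENSMUSG00000048583) lies at chr7:142650768-142666816 of GRCm38, next to H19. It encodes a secreted growth factor of the foetus that signals through Igf1r and is cleared by Igf2r. The control mean was 70601 normalized counts and the Df/+Bl6 mean 29556, which is 41.9% of the control level (log2 ratio -1.26). Of the 550 genes listed as lower 81.1% fell less than Igf2, and the median of the 550 was -0.81. Igf2 was also an abundant transcript, with 33 of the 1346 listed genes at a higher mean. Igf2os, a noncoding RNA from the other strand of the same region, was tested and not listed. The libraries were stranded, but the sources used here do not say whether strand was used in mapping or counting. The authors kept reads with a single best mapping location, so reads from sequence shared by Igf2 and Igf2os may have been dropped.

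Zdbf2 (ENSMUSG00000027520) lies at chr1:63200358-63314576 of GRCm38 and is known for paternal expression. The mean of reads assigned to its 129S5 allele was 131 in the controls and 241 in Df/+Bl6, 1.84-fold higher (log2 ratio 0.88). Of the 134 genes whose 129S5 allele was listed as higher, 92 had a larger rise, and the median of the 134 was 1.05. Zdbf2 was tested in the combined comparison and is not listed there, and its C57BL/6J allele is not listed either. Its change was not compared between the alleles, since the values of unlisted alleles are not in the tables. In all, 68 of the 257 genes listed for the 129S5 allele are not listed for C57BL/6J, and 30 are in neither of the other tables. Gpr1, which overlaps Zdbf2 and is imprinted as well, was tested and not listed.

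**Figure D1:**
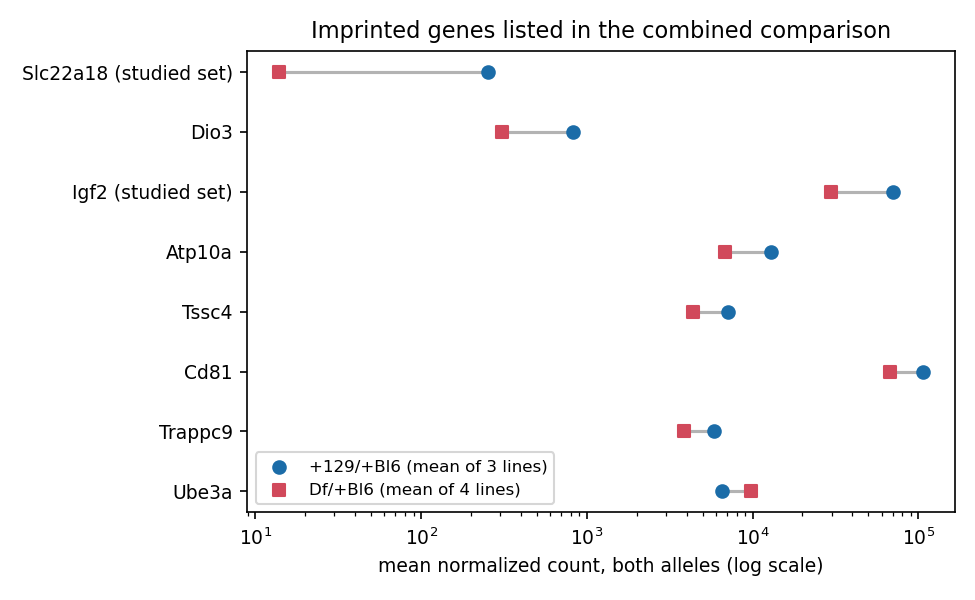
Mean normalized count over both alleles (log axis) of the 8 imprinted genes listed in the combined comparison, with circles for the mean of 3 +129/+Bl6 lines and squares for the mean of 4 Df/+Bl6 lines. Slc22a18 and Igf2 belong to the set of 38 and the other 6 to a further list. The square lies left of the circle for 7 genes and right of it for Ube3a.

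The other 29 tested genes were not listed in the combined comparison, and their levels are not in the tables used here. Not being listed means that the authors' test did not pass its threshold, and does not show equal expression. In the H19/Igf2 cluster this holds for H19, the maternally expressed noncoding RNA that shares enhancers with Igf2. In the Kcnq1ot1 cluster Cdkn1c, which encodes the CDK inhibitor p57, and Ascl2, a transcription factor of the trophoblast, were not listed. Phlda2, a maternally expressed inhibitor of placental growth, was not among the genes tested, and for Kcnq1ot1 itself no identifier was found.

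In the Dlk1-Meg3 cluster of chromosome 12, Dlk1 (a transmembrane protein of the Notch ligand family), the noncoding RNA Meg3 and the retrotransposon-derived Rtl1 were tested and not listed. The noncoding RNAs Rian and Mirg were not tested. In the Peg3 cluster Peg3 and Zim1, which encode zinc finger proteins, were not listed, and Usp29 was not tested. All 4 genes of the Snrpn region, Snrpn, Ndn, Magel2 and Peg12, were tested and none was listed. The same holds for Peg10, Sgce, Ppp1r9a and Asb4 of the Peg10 cluster on chromosome 6.

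Among genes at other loci, the growth regulators Plagl1, Grb10 and Igf2r were tested and not listed. Gnas, which encodes a G protein subunit, and Nnat, Mest, Impact, Nap1l5, Zrsr1, Commd1, Inpp5f and Mcts2 were likewise not listed. Airn and Rasgrf1 were not tested. By parental origin, 1 of 19 tested paternally expressed genes (5.26%) and 1 of 12 tested maternally expressed genes (8.33%) were listed in the combined comparison. Each of these shares rests on a single gene, and 8.67% of all tested genes were listed.

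**Figure D2:**
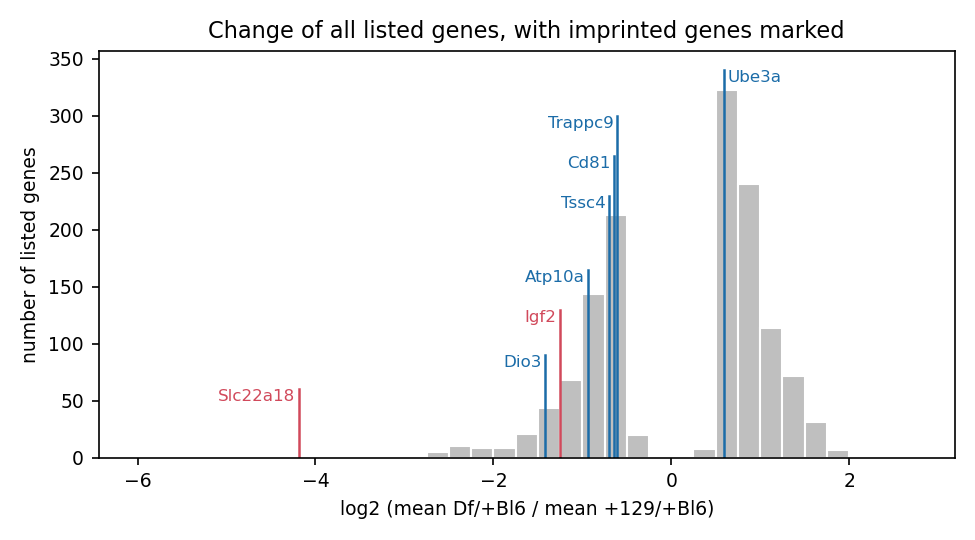
Number of listed genes (vertical axis) by log2 ratio of the Df/+Bl6 mean to the +129/+Bl6 mean for the 1346 genes of the combined table, in bins of 0.25. Red lines mark Slc22a18 (-4.19) and Igf2 (-1.26), and blue lines the 6 listed genes of the further list, of which Ube3a alone is on the positive side.

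A further list of 41 imprinted genes outside the set was compared in the same way, with the caveat that imprinting of several of them is limited to placenta or brain. Of the 31 tested, 6 were listed (19.4%), 5 lower and 1 higher in Df/+Bl6. Of all tested genes 8.67% were listed, 3.54% as lower and 5.13% as higher. Dio3, the deiodinase gene at the end of the Dlk1-Meg3 cluster, fell from a control mean of 823 to 308 with the deletion (log2 ratio -1.42). Its cluster partners Dlk1, Meg3 and Rtl1 were not listed. Atp10a, a phospholipid flippase gene of the Snrpn region, fell from 12998 to 6796 (log2 ratio -0.94).

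Atp10a was the single gene of either imprinted list that both allelic tables hold. Its 129S5 allele went from a control mean of 1515 to 725 (log2 ratio -1.06), and its C57BL/6J allele from 3192 to 1587 (log2 ratio -1.01). Whether the tables share their size factors is not given in the sources used here, so levels were not compared between them. Ube3a, the ubiquitin ligase gene that is maternally expressed in neurons, was higher in Df/+Bl6 with 9847 against 6526 (log2 ratio 0.59). Trappc9, a gene of vesicle transport, was lower with 3832 against 5851 (log2 ratio -0.61).

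Distal chromosome 7 holds the clusters of both listed genes of the combined comparison. In the Kcnq1ot1 cluster, Cd81, a tetraspanin gene, fell from a control mean of 106094 to 67789 (log2 ratio -0.65). Tssc4, its neighbour, fell from 7101 to 4370 (log2 ratio -0.70). On the other side of H19, Ctsd, which encodes the lysosomal protease cathepsin D and is not on the lists of imprinted genes, fell from 348801 to 201916 (log2 ratio -0.79). These 3 were the listed ones among 17 tested genes of a list of 23 neighbours. Cd81 and Tssc4 are also among the 6 listed genes of the further imprinted list. All 3 lie in the window described next, so these counts share genes. In a window picked with the values in view, from 1 Mb before H19 to 1 Mb past Slc22a18, 34 genes were tested and 6 were listed (17.6%), against 8.67% of all tested genes. Without Igf2 and Slc22a18, around which the window was drawn, it was 4 of 32 (12.5%). These 4 were lower in Df/+Bl6, where 3.54% of all tested genes were listed as lower. Igf2 and Slc22a18 were lower too, but were known to be so when the window was drawn. The sixth listed gene was Tollip, an adaptor of Toll-like receptor signalling (log2 ratio -0.53). Listed and unlisted genes are interspersed along the window. Cdkn1c and Nap1l4, which flank Slc22a18 among the tested genes, were not listed.

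**Figure D3:**
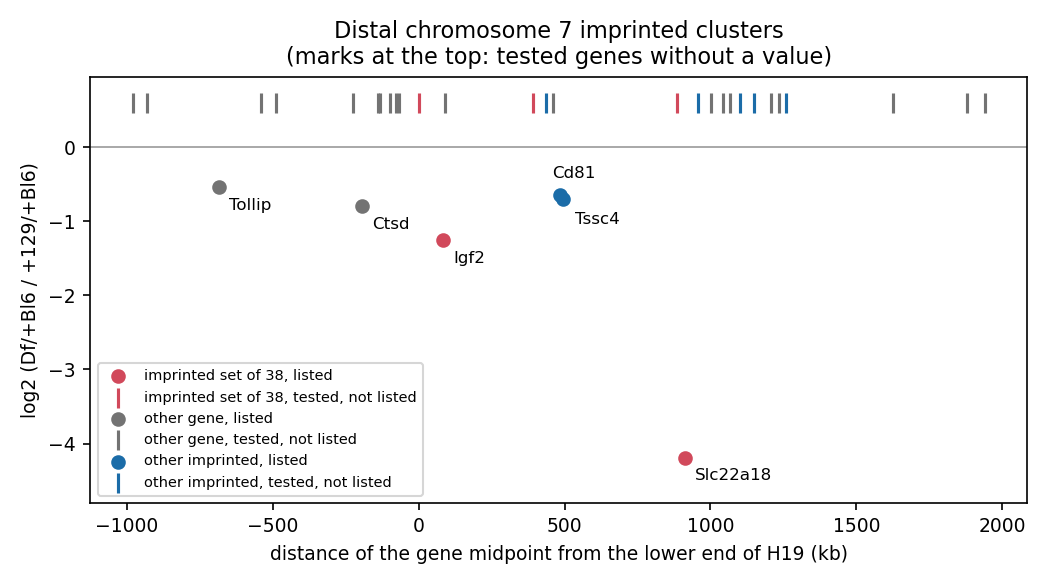
Tested genes of distal chromosome 7 by distance of their midpoint from the lower end of H19 (kb) and log2 ratio of Df/+Bl6 to +129/+Bl6; ticks at the top mark tested genes that are not listed and have no value. All 6 listed genes lie below 0, from Tollip (-0.53) to Slc22a18 (-4.19). They include Igf2 and Slc22a18, around which the window was drawn.

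Around all loci of the set, 272 other genes within 1 Mb were tested and 19 were listed (6.99%), 10 higher and 9 lower in Df/+Bl6. Over all tested genes the share was 8.67%, with 5.13% listed as higher and 3.54% as lower. The neighbours named here, like Tollip, were chosen after their values were seen. At the Zrsr1 locus of chromosome 11 all 3 listed neighbours were higher, with Xpo1, the nuclear export receptor, at 19042 against 8360 (log2 ratio 1.19). Near Nnat both listed neighbours were higher, and Rbl1, which encodes the pocket protein p107, had a log2 ratio of 0.91. No listed gene was found within 1 Mb of Grb10, Igf2r, Mest, Nap1l5, Peg10, Rasgrf1 or Zdbf2.

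A list of 28 factors known to act on imprints or on DNA methylation was examined beside the imprinted genes. Of the 24 tested, 12 were listed (50.0%), all higher in Df/+Bl6, with a median log2 ratio of 0.76. Over all tested genes 8.67% were listed, and 5.13% were listed as higher. Hells, a chromatin remodeller needed for DNA methylation, rose from 2005 to 6472 (log2 ratio 1.69). Ezh2 and Suz12, subunits of Polycomb repressive complex PRC2, had log2 ratios of 1.12 and 0.81. Eed, a further PRC2 subunit, was tested and not listed. Smchd1, a chromatin protein that silences several imprinted clusters, had a log2 ratio of 0.93, and its 129S5 allele was listed as well (1.18). Uhrf1, which brings Dnmt1 to newly replicated DNA, rose from 5703 to 10373 (log2 ratio 0.86), and Arid4b had a log2 ratio of 0.77. The maintenance methyltransferase Dnmt1, named for its role after its values were seen, rose from 14529 to 21683 (log2 ratio 0.58). Both its alleles were listed, with log2 ratios of 0.67 (129S5) and 0.62 (C57BL/6J). Zfp445 (log2 ratio 0.75) and Ctcf (0.50) were listed too, while Zfp57, Trim28 and Setdb1 were tested and not listed. Nor were Tet1, Tet2 and Tet3, which act in the removal of DNA methylation and were tested as well. Like Dnmt1, these genes from Zfp445 to Tet3, and Eed, were named after the results were seen. Hells, Ezh2, Dnmt1 and Uhrf1 are also known to rise in dividing cells, and the part of cell division in these values was not tested.

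Of 14 partners of the growth genes, all tested, 1 was listed (7.14%), against 8.67% of all tested genes. It was Ccne1 (log2 ratio 0.55), a cyclin gene whose kinase complex p57 inhibits. Igf1r, Insr and Igf2bp1 to Igf2bp3, which encode the receptors of Igf2 and the proteins that bind its mRNA, were not listed.

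Markers of other cell types were examined because minced embryo bodies give mixed cultures. Of the Schwann or neural crest markers reported here, S100b fell from 615 to 123 (log2 ratio -2.32) and Sox10 from 326 to 113 (log2 ratio -1.53). Foxd3 fell from 118 to 40.3 (log2 ratio -1.54) and Erbb3 from 282 to 132 (log2 ratio -1.09). Comp, a cartilage matrix gene, fell from 2422 to 420 and was the single one of 7 tested chondrocyte markers listed in the combined comparison. It was also listed as lower on the 129S5 allele (log2 ratio -2.84) and the C57BL/6J allele (-2.40). Hapln1, a cartilage link protein gene of the same marker list, was listed for the C57BL/6J allele, where it fell from 124 to 42.4 (log2 ratio -1.55). None of 10 skeletal muscle, 6 endothelial, 6 macrophage or 4 adipocyte markers tested was listed. All 12 fibroblast markers were tested, with Fn1 lower (log2 ratio -0.69) and Fbln1 higher (log2 ratio 0.52). The part of cell makeup in the changes of Slc22a18, Igf2 and Dio3 was not tested. In bulk RNA, fewer cells of a type and less RNA per cell cannot be told apart.

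**Figure D4:**
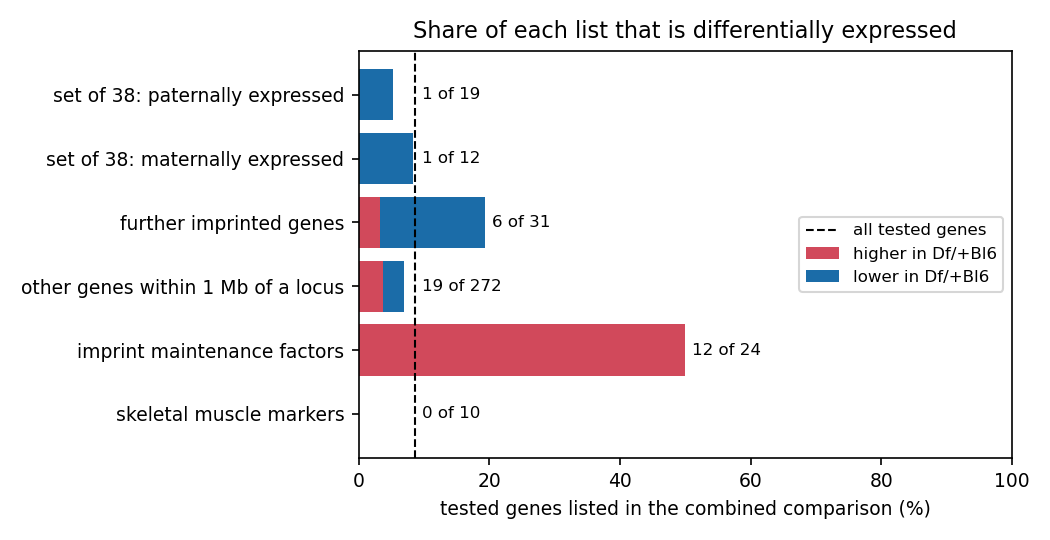
Share of tested genes of each list that is listed in the combined comparison (percent), split into higher and lower in Df/+Bl6, with the number listed of the number tested beside each bar and the share over all tested genes (8.67%) as a dashed line. With 1 listed gene each, the paternally (1 of 19) and maternally expressed genes of the set (1 of 12) lie below the line. The further imprinted genes (6 of 31) and the imprint maintenance factors (12 of 24) lie above it. The latter list, so labelled in the figure, also holds Tet1, Tet2 and Tet3, which act in the removal of DNA methylation.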

How the data were processed

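RNA-seq of 7 MEF lines was used. The authors aligned the reads with GSNAP, allowing no mismatch, to a C57BL/6J transcriptome of GRCm38 and its 129S5/SvEvBrd version, counted pairs on a single gene, left out genes with under 10 reads on each allele, and tested genotypes with DESeq. The deposited signal values are mean normalized counts per genotype, which the authors normalized with DESeq. Whether the tables share size factors is not given in the sources used here. Of these columns the first genotype mean was taken as Df/+Bl6, from the direction of change that a figure legend of the study gives. The deposited fold change and p-value columns were not used, other than that a gene's presence in a table was read as passing an FDR of 0.05. A further deposited file holds 9 columns of values without sample names, which were not used. Its 15531 identifiers were taken as the genes tested.

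The set and all lists were chosen with earlier results of these data known. A test over single lines (limma), planned in case the columns were named, could not be run. All genes of the set are named, those listed in any table with both means, and of each other list the listed genes up to 6 by absolute log2 ratio. Some cell type markers are not reported here and were left out of the counts of their list. Genes named outside this rule are marked in the text. Symbols came from a table of gene names that holds 14963 of the tested identifiers, with RefSeq synonyms, and positions from RefSeq on GRCm38.p6, by symbol, for 14525. Ratios and counts were computed with Python 3.11.15, numpy 2.4.6 and pandas 2.3.3, and figures with matplotlib 3.10.9. The ratio was checked on made-up means. Pseudocounts, limits on the mean, symbol matching and neighbour distance were varied.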

Additional observations from a re-analysis of the deposited data

How the results depend on the processing

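No paired analysis was possible because no values of single lines were used, and for the same reason no line could be left out. With a mean of at least 1000 required, 1 of the 38 imprinted genes was listed in the combined comparison, Igf2. A limit of 100 left 2 listed there, 1 on the 129S5 side and 0 on the C57BL/6J side. A pseudocount of 100 moved the log2 ratio of Slc22a18 to -1.64 and that of Zdbf2 to 0.56, while pseudocounts of 1 and 10 left Slc22a18 between -4.09 and -3.46. The log2 ratio of Igf2 stayed between -1.26 and -1.25 with all 3. The median log2 ratio of the 2 listed genes was -2.72, and -1.26 without Slc22a18. Of the 39 ratios of genes outside the set, 6 moved by over 1.5 times with a pseudocount of 100, and none changed sign. Over annotated identifiers alone, 8.82% of the tested genes were listed. Within 0.5 and 2 Mb of the loci, distances chosen after seeing the data, 7.5% and 8.57% of the neighbours were listed.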
